A study of Mus musculus with 2 samples.

Results

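The genes described here encode the 2 cytoplasmic actins and the small proteins that set how much actin is monomer and how much is filament. They are Actb and Actg1, the thymosins Tmsb4x and Tmsb10, the profilins Pfn1 and Pfn2, the cofilin family members Cfl1, Cfl2 and Dstn, and Arpc2 of the Arp2/3 complex. These 10 genes were taken by name from the 43346 genes of the deposited tables, and all 10 matched exactly 1 gene identifier. RNA longer than 200 nt was measured in 2 libraries, biological replicates 1 and 2, each from a pool of 50 laser-captured layer 5 pyramidal neurons, the large excitatory output neurons of the cerebral cortex. The mice were wild-type males of 8 months, given as strain B6NCrl in one label and as C57Bl5 or C57Bl6 in others, and both libraries carry 1 donor identifier. There was no second condition, and nothing in the labels says that the pools came from separate animals, so the spread between them may be technical.

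Actin monomers add to the ends of filaments and leave them again, and cells hold a reserve of monomers bound to small proteins. Beta thymosins sequester monomers, while profilins bind monomers, favour their exchange of nucleotide and deliver them to growing ends. Cofilin and its relative ADF, encoded by Dstn, sever and disassemble filaments, and the Arp2/3 complex starts new branches from existing ones. In neurons this cycle is known for shaping growth cones, dendritic spines and the presynaptic terminal.

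The 10 genes fall into small families of related sequence, and the coding stretches below show where some of the relatives differ. In each pair below, from GENCODE M21 transcripts, capitals mark bases that differ between the 2 genes of the pair. The first 60 coding bases of the actins encode the amino end, where the 2 proteins are known to differ, and 9 of these bases differ.
Actb: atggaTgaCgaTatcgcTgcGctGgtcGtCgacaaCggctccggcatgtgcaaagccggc
Actg1: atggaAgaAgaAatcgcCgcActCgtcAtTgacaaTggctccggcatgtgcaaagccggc
The whole coding sequences of the thymosins are 135 bases each and differ at 40 of them.
Tmsb4x: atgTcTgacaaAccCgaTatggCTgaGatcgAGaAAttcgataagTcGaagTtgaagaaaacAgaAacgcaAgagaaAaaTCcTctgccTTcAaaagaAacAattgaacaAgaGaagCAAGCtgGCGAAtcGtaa
Tmsb10: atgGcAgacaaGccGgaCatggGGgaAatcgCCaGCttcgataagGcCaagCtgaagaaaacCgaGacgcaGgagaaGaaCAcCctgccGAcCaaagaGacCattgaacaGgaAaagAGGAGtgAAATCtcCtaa
The first 60 coding bases of the profilins differ at 20.
Pfn1: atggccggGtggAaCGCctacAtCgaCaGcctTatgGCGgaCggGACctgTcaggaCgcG
Pfn2: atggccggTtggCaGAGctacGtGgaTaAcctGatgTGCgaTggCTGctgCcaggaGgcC

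Over their whole coding sequences the actins were the closest pair, with 88.7% of 1128 bases identical and a longest identical run of 62 bases. The thymosins were 70.4% identical with a longest run of 10 bases, and the profilins 61.5% over 423 bases with a longest run of 12. No 31-base stretch was shared in place between the 2 thymosins or between the 2 profilins, against 106 such stretches between the actins. Of all distinct 31-mers in their annotated transcripts, 40.2% of those of Actg1, 31.03% of Tmsb10, 27.1% of Cfl1 and 23.9% of Actb also occurred in another gene. For Tmsb4x, Cfl2, Pfn1 and Arpc2 this share was 0%.

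The read assignments were nevertheless sharp. Each member had between 3056 and 81869 estimated reads in a library. The posterior SD, which the deposited tables give for the uncertainty of dividing reads among features, was 0 in each library for 6 members and at most 14.05 reads, for Actg1. That was never more than 0.0768% of a member's reads. Pseudogenes that share at least 50% of their 31-mers with a member held little. The highest that shares 31-mers with Actg1, and also with Actb, was Gm12715 on chromosome 4, at 2.89 TPM in replicate 1 and 4.50 in replicate 2. Gm3788 for Tmsb10 stood at 2.53 and 4.98 TPM and Gm6180 for Cfl1 at 1.49 and 3.99 TPM. Gm9844, a gene annotated as coding that shares 73.8% of its 31-mers with Tmsb10, stood at 4.08 and 3.26 TPM. The Cfl1 interval overlaps Snx32 on the other strand by 2967 bases, and the use of strand in counting is not given in the sources used here. Of the 31-mers of Snx32, 2.33% occurred in Cfl1, and its posterior SD was 0 in each library. The part of reads from the overlap in the Cfl1 value was not tested. Snx32 stood at 55.96 and 66.2 TPM.

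The libraries held 24171434 estimated reads in replicate 1 and 27946180 in replicate 2, of which spike-ins took 4.28% and 5.32%. All 8 glutamatergic markers and all 8 layer 5 markers checked reached 1 TPM in each library, the glutamatergic ones with sums of 626 and 804 TPM. Other cells were represented too. Of 8 interneuron markers 8 and 7 reached 1 TPM in replicates 1 and 2, with summed levels of 3879 and 1499 TPM. All 8 astrocyte markers and all 8 oligodendrocyte markers did so, with sums of 478 and 569 TPM and of 559.9 and 697 TPM. For 8 microglial markers the sums were 160 and 71.8 TPM, for 8 mural and smooth muscle markers 25.5 and 33.7 TPM, for 8 endothelial markers 114 and 104 TPM, and for 5 erythroid genes 7.59 and 384 TPM. In pooled cells, fewer cells of a type and less RNA per cell cannot be told apart.

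All 10 genes were abundant. Their median level was 516 TPM in replicate 1 and 593 TPM in replicate 2, while over 21474 protein-coding genes the medians were 2.02 and 1.84 TPM. Levels of at least 100 TPM in each library were reached by 9 of the 10, against 5.51% of coding genes. Together the 10 held 1.09% and 1.01% of all TPM. TPM is a share of all transcripts after division of reads by effective length, so levels of different genes can be set side by side within a library.

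**Figure D1:**
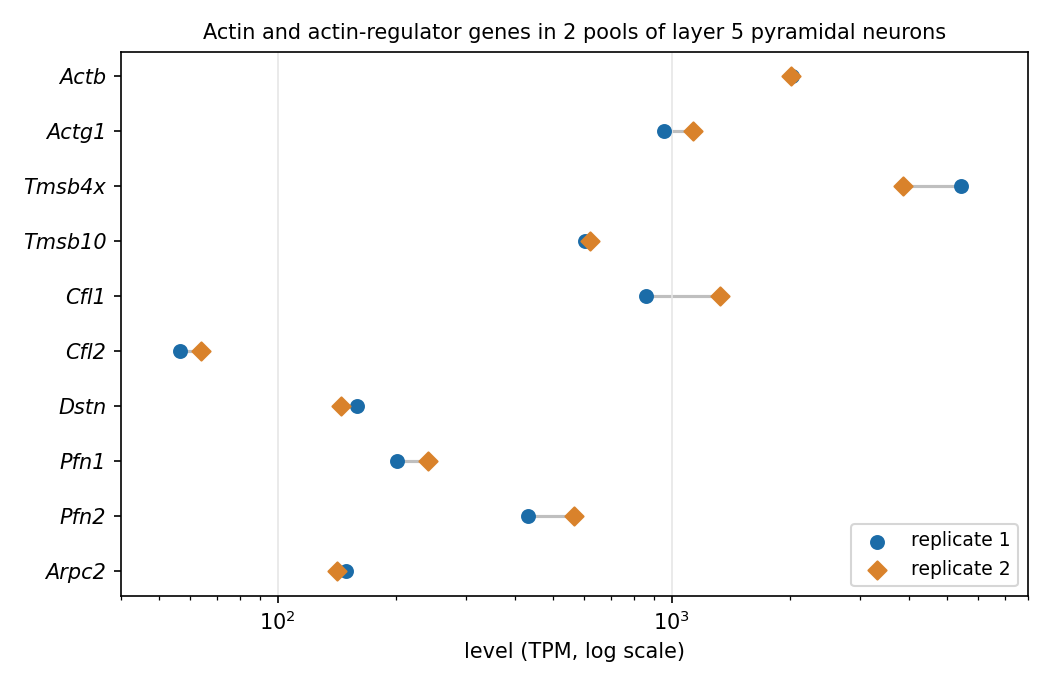
Level of each gene in TPM (log axis) in replicate 1 (circles) and replicate 2 (diamonds), with a grey line joining the 2 libraries. Tmsb4x lay highest, at 5423 and 3862 TPM, and Cfl2 lowest, at 56.5 and 64.0 TPM.

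Beta-actin RNA was more abundant than gamma-actin RNA in these pools, 2.11 times in replicate 1 and 1.78 times in replicate 2. Actb (chromosome 5, 142903115 to 142906754 on mm10) measured 2024 TPM in replicate 1 and 2012 in replicate 2, or 2018 ± 8.24 TPM (SD, n = 2). Actg1 (chromosome 11, 120345690 to 120348542) stood at 958 TPM and 1131 TPM, or 1044 ± 122 TPM. The Actb values almost coincided, the Actg1 value was lower in replicate 1, and the ranges of the 2 genes did not overlap. On the log2 scale Actb exceeded Actg1 by 1.08 in replicate 1 and 0.83 in replicate 2, a mean of 0.95 ± 0.17 (SD, n = 2). Actb held 65.9% ± 2.72 of the TPM of the pair.

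The 4 muscle actin genes lay far below. Acta1, the skeletal muscle actin, measured 20.5 TPM in replicate 1 and 35.6 in replicate 2, from 548 and 1064 reads with a posterior SD of 0. Acta2, the actin of vascular smooth muscle, stood at 11.6 and 0.21 TPM, from 391 reads in replicate 1 and 8 reads in replicate 2, a mean of 8.52 CPM that is below the 10 CPM asked of the counts given further on. Its ratio of CPM, the reads of a gene relative to the scaled library size, was 54.8 (95% exact counting interval 27.5 to 128). Acta2 is itself one of the mural and smooth muscle markers. Of 8 such markers 4 and 3 reached 1 TPM in replicates 1 and 2. Tagln, another gene of that list, measured 4.40 TPM in replicate 1 and 0.15 in replicate 2, while Vtn stood at 4.39 and 25.7 TPM. The part of such cells in the Acta2 value was not tested. The cardiac actin Actc1 stood at 0 and 0.03 TPM, and the enteric smooth muscle actin Actg2 was without reads in both libraries.

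Thymosin beta 4 had the highest RNA level of the set. Tmsb4x (chromosome X, 167207093 to 167209315) measured 5423 TPM in replicate 1 and 3862 in replicate 2, ranking 4 and 7 among nuclear coding genes of its library. Tmsb10 (chromosome 6, 72957347 to 72958748) stood at 602 and 619 TPM, or 610 ± 12.1 TPM (SD, n = 2). In log2(TPM + 1), Tmsb4x exceeded Tmsb10 by 3.17 in replicate 1 and 2.64 in replicate 2, a mean difference of 2.91 ± 0.37. The 2 thymosins summed to 6024 TPM and 4480 TPM, which was 2.02 and 1.43 times the sum of the 2 actins. These are ratios of RNA, and the proteins were not measured.

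Other beta thymosin genes were far lower. Tmsb15b2 stood at 62.3 and 55.7 TPM in replicates 1 and 2, Tmsb15b1 at 44.5 and 35.4 TPM, and Tmsb15l at 41.4 and 37.2 TPM. These are near copies of each other on chromosome X with 237 to 438 reads each and posterior SDs of 8.40 to 17.5 reads, so how reads divide among them is less certain than for the members. Tmsb15a was without reads in both.

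Among the profilins, the neuron-enriched form was the higher one. Pfn2 (chromosome 3, 57841895 to 57848079) measured 431 TPM in replicate 1 and 567 in replicate 2, or 499 ± 95.7 TPM (SD, n = 2). Pfn1 (chromosome 11, 70651850 to 70654644), the form present in most cell types, stood at 200.5 and 241 TPM, or 221 ± 28.7 TPM. Both profilins were lower in replicate 1, and the ranges of the 2 genes did not overlap. Pfn2 exceeded Pfn1 by 1.16 ± 0.09 on the log2 scale, the smallest SD of the 6 differences computed, and held 69.2% ± 1.33 of their joint TPM. The profilin sum was 0.234 ± 0.032 of the actin sum. Pfn4, which is known from testis, stood at 4.36 and 4.85 TPM, and Pfn3 had no reads.

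The cofilin family was dominated by Cfl1, the cofilin of non-muscle cells. Cfl1 (chromosome 19, 5490455 to 5495201) measured 862 TPM in replicate 1 and 1324 in replicate 2, or 1093 ± 327 TPM (SD, n = 2). Dstn (chromosome 2, 143915320 to 143943324), which encodes ADF, stood at 159 and 145 TPM, and Cfl2 (chromosome 12, 54858809 to 54862877), the cofilin known from muscle, at 56.5 and 64.0 TPM. The Cfl1 value was lower in replicate 1, and Dstn and Cfl2 lay below it in each library. Cfl1 exceeded Cfl2 by 4.13 ± 0.31 and Dstn by 2.80 ± 0.53 on the log2 scale. It held 80.0% of the family's TPM in replicate 1 and 86.4% in replicate 2, Dstn 14.8% and 9.46%, and Cfl2 5.24% and 4.17%. The family summed to 0.361 of the actin sum in replicate 1 and 0.488 in replicate 2.

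Arpc2 (chromosome 1, 74236084 to 74268209) encodes a subunit of the structural core of the Arp2/3 complex, where its product pairs with that of Arpc4. It measured 149 TPM in replicate 1 and 142 in replicate 2, or 145 ± 5.03 TPM (SD, n = 2), within the range of its partners. Its distance from the median of the other 9 subunit genes was 0.015 in replicate 1 and -0.27 in replicate 2 on the log2 scale, a mean of -0.13 ± 0.20, less than the spread. Arpc4 stood at 217 and 252 TPM, Arpc5l at 192 and 196 TPM, Arpc3 at 178 and 171 TPM, and Arpc1a at 147 and 174 TPM. The actin-related Arp2 gene, Actr2, stood at 241 and 198 TPM. The 2 genes of Arp3, Actr3 and Actr3b, gave 62.0 and 65.6 TPM for Actr3 and 76.2 and 78.8 TPM for Actr3b. Arpc5 stood at 122 and 91.9 TPM.

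The exception within the complex was Arpc1b. It measured 2.14 TPM in replicate 1 and 3.69 in replicate 2, from 42 and 97 reads, while its paralogue Arpc1a was far higher in each library. None of the 9 subunit genes with a mean of at least 10 CPM differed 2-fold between the pools, and their median log2 ratio was -0.00416.

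**Figure D2:**
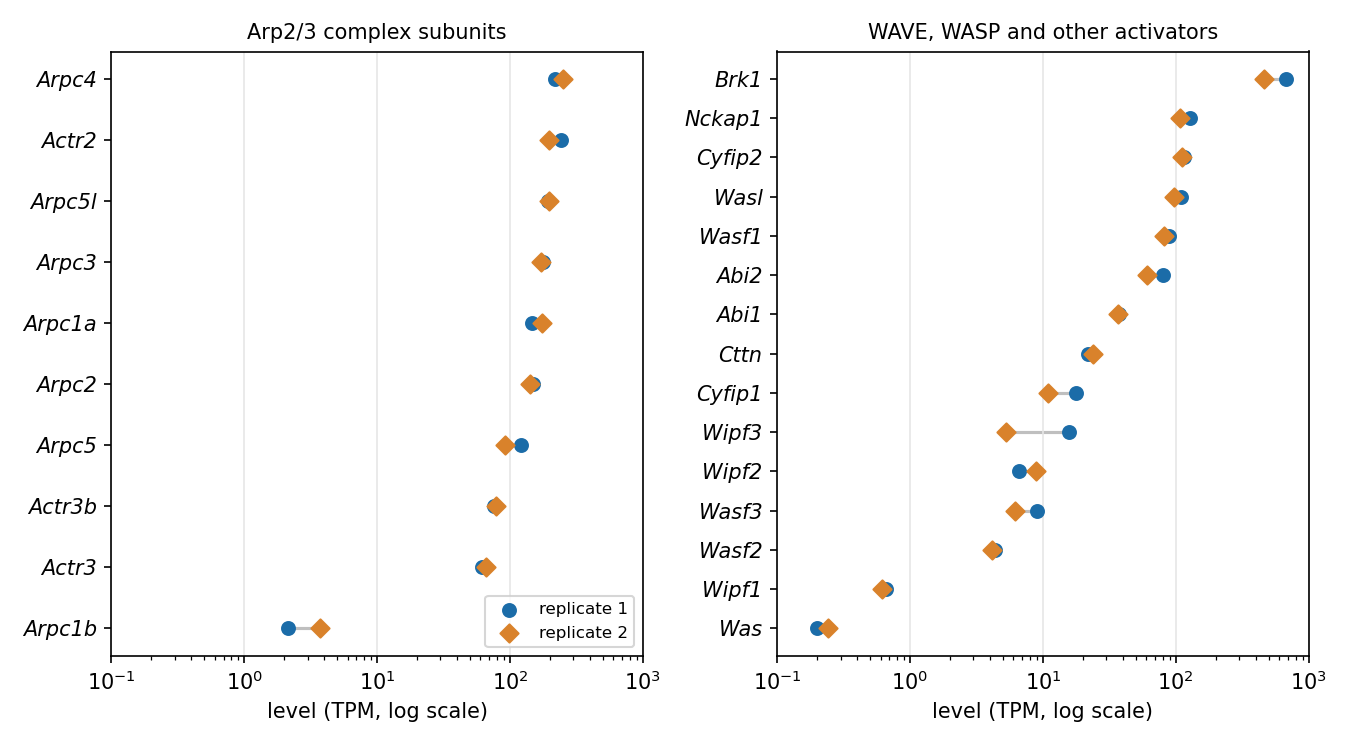
Levels in TPM (log axis) of 10 Arp2/3 subunit genes (left) and 15 genes of its activators (right) in replicate 1 (circles) and replicate 2 (diamonds). All subunits but Arpc1b lay between 62.0 and 252 TPM, and among activators Wipf3 showed the widest gap on this axis between the pools, at 15.7 and 5.26 TPM.

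Ordered by mean level, the genes ran from Tmsb4x through Actb, Cfl1, Actg1, Tmsb10, Pfn2, Pfn1, Dstn and Arpc2 to Cfl2. Of 9 neighbouring pairs in that order, 8 kept it in each library. Cfl1 and Actg1 did not differ beyond the spread, with a log2 difference of -0.15 in replicate 1 and 0.23 in replicate 2. For Tmsb10 over Pfn2 the difference was 0.30 ± 0.25, and for Dstn over Arpc2 0.07 ± 0.05 (SD, n = 2), each only a little more than 1 SD.

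Between the pools, none of the 10 genes differed 2-fold. Over all 9189 genes with a mean of at least 10 CPM, 4.47% did, 2.62% being higher in replicate 1, and among 2282 coding genes at a mean of at least 50 TPM, a minimum chosen after the values were seen, 1.88% did. The median absolute log2 ratio was 0.21 over the 10 genes and 0.19 over those 2282 genes. With 1 library on each side these ratios have no replicate check. All intervals given for ratios are 95% exact intervals for counting error alone and treat each read as independent. Reads without molecular identifiers are not independent molecules, so the intervals may be too narrow even for counting error.

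With TMM scaling the largest log2 ratios, in size, belonged to Cfl1, Tmsb4x and Pfn2. Cfl1 had 774 CPM in replicate 1 and 1187 CPM in replicate 2, a ratio of 0.652 (0.640 to 0.664) and a log2 ratio of -0.62. Tmsb4x had 3105 CPM and 2208 CPM, a ratio of 1.41 (1.39 to 1.42) and a log2 ratio of 0.49. Pfn2 had 634 CPM and 833 CPM, a ratio of 0.760 (0.744 to 0.776) and a log2 ratio of -0.40. These 3 lay outside the range of the lower 75% of the abundant coding genes, which reached an absolute log2 ratio of 0.34, and inside the 95% limit of 0.69 for those genes.

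The other ratios were smaller. Actb, at 1.01 (0.998 to 1.02), and Tmsb10, at 0.977 (0.942 to 1.01), had intervals that included 1. Arpc2 had a ratio of 1.06 (1.02 to 1.11) and Dstn of 1.10 (1.06 to 1.14). Actg1 stood at 0.850 (0.838 to 0.862), Pfn1 at 0.830 (0.792 to 0.870) and Cfl2 at 0.884 (0.844 to 0.926). Scaling to spike-in totals in place of TMM moved the median log2 ratio of all genes from -0.02 to 0.32. Under that scaling Tmsb4x had a log2 ratio of 0.85, Pfn2 of -0.04 and Cfl1 of -0.26, and Actg1, Tmsb10, Pfn1 and Cfl2 turned to higher in replicate 1, at 0.12, 0.32, 0.09 and 0.18. Relative to the median of all genes, the last 4 lay at or below the typical gene, as they did with TMM.

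**Figure D3:**
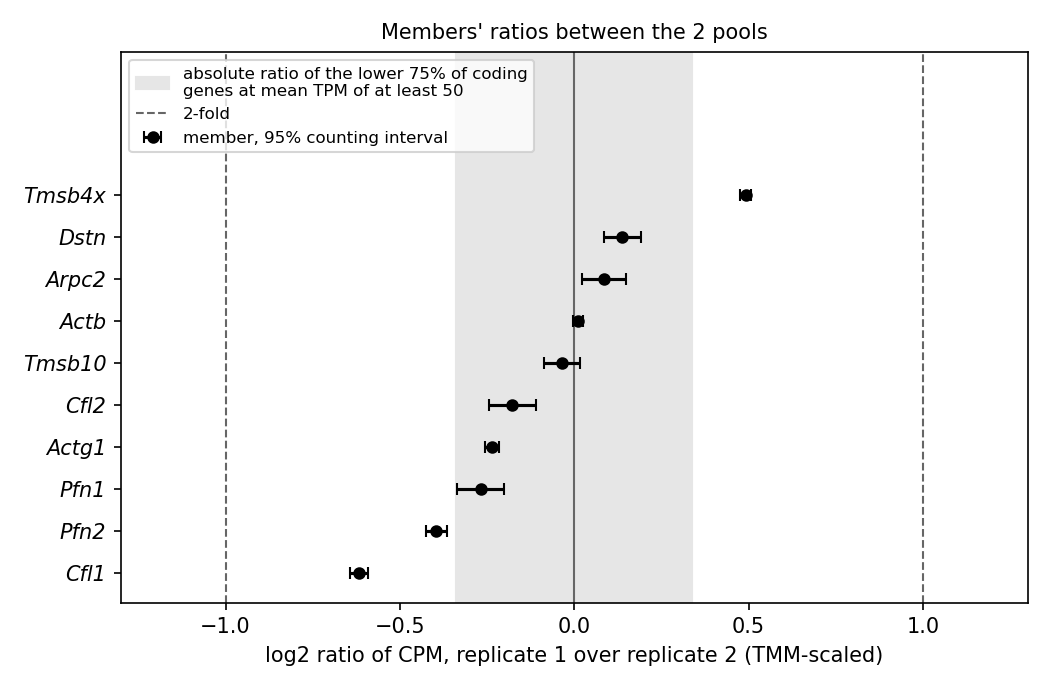
Log2 ratio of TMM-scaled CPM, replicate 1 over replicate 2, for each gene (points), with 95% exact counting intervals. Dashed lines mark 2-fold and the grey band the lower 75% of absolute ratios among abundant coding genes. Only Tmsb4x, Pfn2 and Cfl1 lay outside the band, and none reached 2-fold.

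Markers of some cell classes also differed 2-fold between the pools, and those of others did not. None of the 8 glutamatergic, 7 astrocyte, 8 oligodendrocyte and 4 endothelial markers with a mean of at least 10 CPM did. Over all genes the share was 4.47%. Of 6 microglial markers with a mean of at least 10 CPM, 4 were at least 2-fold higher in replicate 1, among them C1qb at 39.4 and 13.9 TPM, and none of the 8 microglial markers was at 0 in both libraries. Of 7 interneuron markers 4 were at least 2-fold higher in replicate 1, where Tmsb4x was also higher. Among them Sst had 2506 and 844 TPM and Vip 153 and 0.03 TPM. Pvalb, at 508 and 338 TPM, and Gad1, at 143 and 94.8 TPM, were higher in replicate 1 by less than 2-fold. Lhx6, at 5.02 and 5.29 TPM, was not higher in replicate 1. Of 8 layer 5 markers 3 were at least 2-fold higher in replicate 2, while Crym, at 49.7 and 40.4 TPM, and Bcl11b, at 12.2 and 10.2 TPM, were not. With TMM scaling Cfl1 and Pfn2 were also higher in replicate 2, as were, by less, Actg1, Pfn1 and Cfl2. By spike-in totals the log2 ratio of Pfn2 was -0.04. The 8 layer 5 markers had sums of 2372 and 4856 TPM in replicates 1 and 2. Of these, Pcp4 alone gave 2134 and 4468 TPM. Of 5 erythroid genes 3 had a mean of at least 10 CPM, and all 3 were at least 2-fold higher in replicate 2. Among them Hba-a2 had 2.64 and 152 TPM. Of 2 mural and smooth muscle markers tested, 1, Vtn, was at least 2-fold higher in replicate 2. The part of these cell classes in the ratios of Tmsb4x, Cfl1 and Pfn2 was not tested. Under spike-in scaling, too, none of the 10 genes reached 2-fold, against 7.02% of all genes.

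At the level of transcripts, values for replicate 1 showed 1 leading transcript for most genes. The leading transcript held at least 95.99% of the gene's TPM for 8 of the 10, and Cfl1, Cfl2 and Dstn have a single transcript in the table. For Actb the leading protein-coding transcript held 99.7%, and retained-intron and other noncoding transcripts together held 0.25%. Tmsb4x-201 held 99.7% of Tmsb4x, Pfn1-201 99.7% of Pfn1 and the leading transcript of Tmsb10 98.3%.

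Actg1, Arpc2 and Pfn2 were divided more. Of Actg1, Actg1-204 held 59.6% (19754 reads, posterior SD 431) and Actg1-202 held 40.2% (14274 reads, posterior SD 433). In GENCODE M21 both carry the same 1128 coding bases. They differ in the annotated bases before the start codon, of which Actg1-202 has 124 and Actg1-204 has 0, so the split between them does not change the encoded protein. The leading Arpc2 transcript held 81.6% and Arpc2-201, with the same coding sequence, 10.2%, while Arpc2-202, with a shorter coding sequence of 855 bases, held 6.66%. Pfn2-201, which encodes the full 423 coding bases, held 95.99%, and the next 2, whose coding sequences are shorter, held 2.70% and 1.11%. With 1 library these shares carry no spread.

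**Figure D4:**
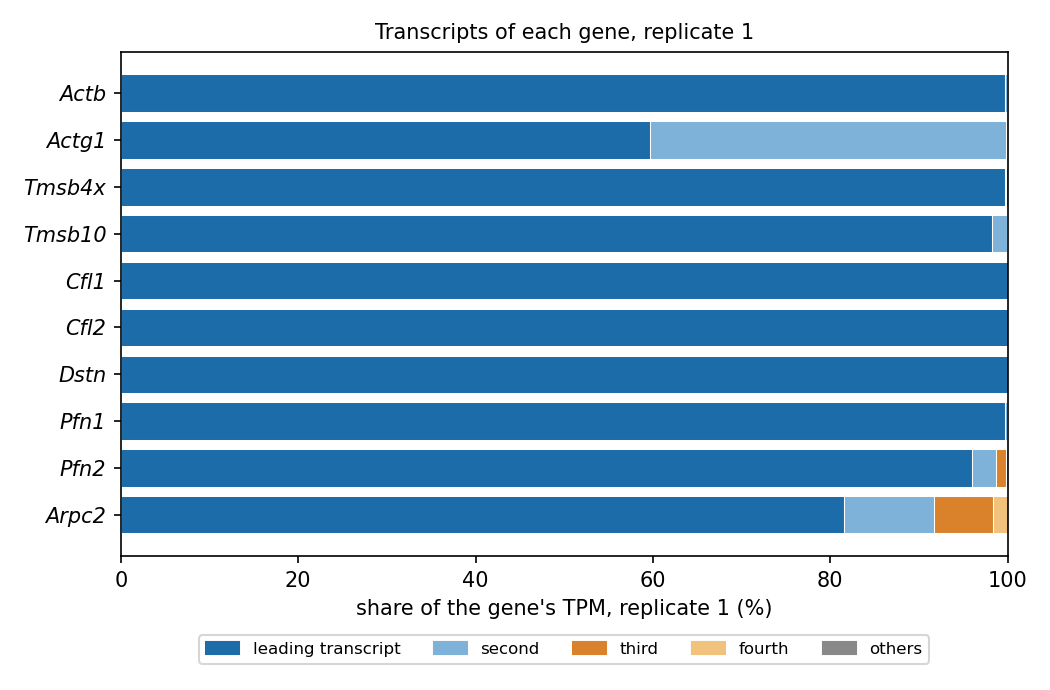
Share of each gene's TPM held by its transcripts in replicate 1, stacked from the leading transcript. Actg1 was split 59.6% to 40.2% between a pair of transcripts with the same coding sequence, and Arpc2 had 81.6% in its leading transcript.

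The wider actin machinery was listed as 107 further symbols in 11 groups, of which 104 were matched. Of the rest, Mkl1 and Mkl2 are older symbols of Mrtfa and Mrtfb, which were matched, so that Pdxp alone has no value here. In each library 87 of them reached 1 TPM. Their median was 16.1 TPM in each replicate, below that of the 10 genes described above. Of 77 with a mean of at least 10 CPM, 4 differed 2-fold between the pools, or 5.19% against 4.47% of all genes. Under spike-in scaling 8 of the 77 did, against 7.02% of all genes.

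The activators of Arp2/3 were led by subunits of the WAVE complex, which relays signals of the GTPase Rac. Brk1, its smallest subunit, measured 679 TPM in replicate 1 and 464 in replicate 2, Nckap1 at 128 and 108 TPM, and Cyfip2 at 115 and 112 TPM. Of 15 activator genes 13 reached 1 TPM in each library. Wipf3, a partner of WASP proteins, was the 1 of 12 tested that differed 2-fold, at 15.7 and 5.26 TPM, a ratio of 3.05 (2.74 to 3.41). Under spike-in scaling Cyfip1 passed as well, at a log2 ratio of 1.01. Alternatives between paralogues, chosen after their values were seen, were uneven. Wasf1 stood at 88.6 and 80.96 TPM, while Wasf3 stood at 9.10 and 6.17 TPM and Wasf2 at 4.38 and 4.14 TPM. Cyfip1 stood at 17.8 and 11.0 TPM.

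Regulators of cofilin each lay below Cfl1 in these libraries. Their medians were 11.3 TPM in replicate 1 and 14.8 TPM in replicate 2 over 13 matched genes, 12 of them detected in each library, and none of the 9 tested differed 2-fold. Cap2, a cyclase-associated protein that helps recycle monomers, stood at 70.8 and 96.7 TPM, Coro1a, a coronin, at 75.7 and 84.3 TPM, and Wdr1, which aids cofilin in disassembly, at 52.8 and 44.9 TPM. The kinases that inactivate cofilin were led by Limk2, at 15.7 and 33.5 TPM, with Limk1 at 2.46 and 2.72 TPM. Tesk1 stood at 1.44 and 1.53 TPM and Tesk2 at 0.53 and 2.15 TPM, each below a mean of 10 CPM. The Limk2 read counts, 990 and 1454, gave a smaller gap than its TPM, with a CPM ratio of 0.764 (0.704 to 0.828). The phosphatases that reactivate cofilin stood at 5.42 and 5.41 TPM for Ssh2, at 4.46 and 3.33 TPM for Ssh1 and at 3.19 and 4.48 TPM for Ssh3. These kinases and phosphatases were named after their values were seen.

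Formins and Ena/VASP proteins, which lengthen unbranched filaments, were the lowest of these groups. Their medians were 5.36 and 4.98 TPM in replicates 1 and 2, with 12 of 16 genes detected in each library. Evl stood at 17.3 and 19.6 TPM, Enah at 16.5 and 20.2 TPM and Fmn2 at 13.2 and 10.6 TPM. The formin Inf2, at 5.73 and 12.7 TPM, had a log2 ratio of -1.11 and was the 1 of 11 tested that differed 2-fold, and under spike-in scaling its log2 ratio was -0.76 and Fmnl2 passed in its place, at 1.18.

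Among genes that cap or sever filaments, Capza2 and Capzb of capping protein and the neuronal tropomodulin Tmod2 led. Capza2 measured 282 TPM in replicate 1 and 254 in replicate 2, Capzb at 164 and 207 TPM, and Tmod2 at 175 and 174 TPM. Capza1, another subunit of capping protein, stood lower, at 21.5 and 18.8 TPM. Of 17 genes 13 reached 1 TPM in each library, and none of 13 tested differed 2-fold. The severing proteins Scin, Avil and Vil1 each stood below 1 TPM, and Gsn stood at 6.15 and 7.08 TPM. These 4 and Capza1 were named after their values were seen.

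Of genes that bind along filaments or under the membrane, 19 of 20 reached 1 TPM in each library and the medians were 22.2 and 25.5 TPM. Over 17 tested genes the median log2 ratio was 0.30, and 2 were at least 2-fold higher in replicate 1, against 2.62% of all genes. Gap43, a protein of growth cones and presynaptic terminals, measured 548 TPM in replicate 1 and 237 in replicate 2, a ratio of 2.32 (2.26 to 2.39). Tpm4, a tropomyosin, stood at 15.9 and 5.30 TPM, a ratio of 3.14 (2.68 to 3.67). Sptbn1, a beta spectrin, stood at 208 and 181 TPM, and Tpm1 at 214 and 133 TPM. Gap43 and Tpm4 also passed 2-fold under the other 3 scalings. Under spike-in scaling Pls3, Marcks and Actn1 passed too, at log2 ratios between 1.09 and 1.31, which made 5 of 17. With TMM these 3 stood at 0.96, 0.94 and 0.76. Spike-in scaling moved the median log2 ratio of all genes to 0.32, and under it 7.02% of all genes passed in either direction.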

How the data were processed

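Per the deposited text files, the authors derived 1 gene table per library from transcriptome alignments on mm10 with GENCODE M4. The sources used here do not name the aligner, the quantifier or the strand setting. The deposited tables hold expected counts (estimated reads, not normalized), TPM over all features including spike-ins, and posterior SDs of counts. The deposited transcript table used, for replicate 1, lists, in percent, how a gene's TPM divides among its transcripts. Effective lengths were 99 bases below length for every transcript of at least 100 bases.

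Symbols, coordinates and transcripts came from GENCODE M21 on GRCm38, which matched 42462 of 43346 genes; 26248 numeric entries and 96 spike-ins were left out of library sizes. Scaling factors came from rounded expected counts by the TMM method of edgeR 4.0.16, run in R 4.3.3. CPM used the unrounded counts, and the intervals used rounded ones. Log2 ratios are log2((CPM + 1)/(CPM + 1)), replicate 1 over replicate 2, and 2-fold calls are over genes at a mean of at least 10 CPM. Ratios not given as log2 are CPM over CPM without a pseudocount. The 31-mers were compared on both strands. Differences between genes are of log2(TPM + 1), with the SD over 2 libraries. No test was run, as there is 1 group. DESeq2 1.42.0 size factors, gene totals and spike-in totals were alternatives. The TMM ratios, the intervals and the 31-mer shares were tested on simulated data.

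The genes and lists were chosen with earlier results of these data known. Of each list, the 3 highest genes and those past 2-fold are named, and all genes of the actin, thymosin, profilin, cofilin and Arp2/3 lists.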

Additional observations from a re-analysis of the deposited data

How the results depend on the processing

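The direction of the differences between related genes held under a pseudocount of 0.1 and with pseudogenes added. Neither setting could have turned it at these levels. The added pseudogenes held at most 0.80% of a member's TPM, and none were added for the profilins or Arpc2. Values that are not per length moved 4 of the 6 differences by more than 1 SD, because the genes differ in length. These became 3.40 for Tmsb4x over Tmsb10, 2.71 for Cfl1 over Cfl2, 2.02 for Cfl1 over Dstn and 2.33 for Pfn2 over Pfn1. The Arpc2 difference from its partners turned sign between the libraries, from -0.27 without replicate 1 to 0.015 without replicate 2. With 2 libraries, leaving out either moves a mean by less than 1 SD by construction, so the other differences say nothing of stability.

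The count of 0 genes of the 10 at 2-fold was the same under all 6 alternatives tried, but most of these could hardly have changed it. A lower minimum or no filter only adds other genes, and a smaller pseudocount matters little at these levels. With DESeq2 size factors and gene totals the log2 ratio of Cfl1 was -0.62 and -0.59, against -0.62 with TMM. Spike-in totals moved the ratios more, and with them the largest log2 ratio of the 10 genes was 0.85, for Tmsb4x. The count over all genes, 411, was 645 with spike-in totals, 1487 at a mean of at least 1 CPM and 1822 with no filter, where the cause was not tested for the spike-in totals and more low genes were tested for the other settings. At 5 TPM in place of 1 TPM, on the mean level, 8 in place of 13 cofilin regulators and 8 in place of 13 formin and Ena/VASP genes counted as detected. All 10 levels were higher when rescaled over genes without spike-ins, for example 5099 TPM for Tmsb4x and 1206 TPM for Cfl1. The shift passed 1 SD for Actb, Tmsb10, Cfl2, Dstn and Arpc2, which became 2221, 672, 66.3, 167 and 160 TPM. No paired analysis was possible because there is a single group. The ratios of the 10 genes rest on 1 library on each side.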

Other observations

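Genes that link the actin monomer pool to transcription were also present. Coactivators of the serum response factor bind actin monomers, and Actb, Actg1 and other cytoskeletal genes are known targets of that factor. Of 4 matched genes of this group, all reached 1 TPM in each library and none of the 3 tested differed 2-fold. Phactr1, which binds actin monomers and protein phosphatase 1, measured 229 TPM in replicate 1 and 198 in replicate 2. The coactivator Mrtfb stood at 47.8 and 43.1 TPM, Mrtfa at 5.25 and 5.09 TPM and Srf itself at 1.87 and 1.68 TPM.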
